A study of Mus musculus with 19 samples.

Results

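Messenger RNA was measured in mouse hepatocytes for 9 output genes of the circadian clock: Noct, Usp2, Dbp, Tef, Hlf, Nfil3, Ciart, Bhlhe40 and Bhlhe41. They were taken by symbol from the 24537 genes of the deposited table, and were selected on their measured difference between old and young mice on each cull day. Their age differences are therefore given as a description, with no test. All 9 were found in the table, and 8 of them passed the filter on low counts; Ciart did not.

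The libraries were made from poly(A) RNA of hepatocytes, the parenchymal cells that carry out most liver metabolism, freed by a 2-step perfusion of the organ. All mice were male, wild-type C57BL/6J animals with no treatment named in the labels. The young group (5mo, 10 libraries) was 140 or 163 days old and the old group (24mo, 9 libraries) was 719 or 742 days old, by the dates of birth and cull. Mice were culled on 2 days that lay 23 days apart, with 5 young and 5 old mice on the first and 5 young and 4 old mice on the second. Each library carries its own number, which is used here as the name of 1 mouse; the labels do not say outright that each came from a separate animal, and p-values measure the spread between these libraries. The labels give no hour of cull, and hours cannot be told apart from the mice or the groups.

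Transcription of clock output genes follows the daily rhythm set by the core clock, in which the activators BMAL1 (the product of Arntl) and CLOCK bind E-boxes and are held back by the PER and CRY proteins. DBP, TEF and HLF are PAR bZIP activators that bind D-boxes, and NFIL3 (E4BP4) is the repressor that competes for the same sites. BHLHE40 and BHLHE41 (DEC1 and DEC2) and CIART (CHRONO) repress at the E-box, USP2 is a ubiquitin-specific protease that acts on clock proteins, and nocturnin, the product of Noct, is a strongly rhythmic phosphatase of NADP(H) whose sequence belongs to the family of the CCR4 deadenylases.

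Total counts over genes ran from 17381439 to 20287628 per library. Hepatocyte markers dominated: the summed level of 7 of them (Alb, Ttr, Apoa1, Cps1, Ass1, Cyp2e1 and Hnf4a) was 85737 to 191257 CPM, counts scaled to a common library size by TMM. Markers of other liver cells were present at a lower level and differed with age: 6 of 6 macrophage, 6 of 6 stellate and 4 of 6 endothelial markers were higher in old mice (edgeR adjusted p under 0.05), where 16.3% of all genes tested were. The summed macrophage markers were 63.2 to 305.7 CPM in young mice and 37.7 to 1645 CPM in old mice, and the summed stellate markers 29.2 to 78.2 and 84.4 to 306.1 CPM. Of the young mice culled first, 1184, 1186 and 1188 stood apart, with Saa1, an acute-phase gene, at 3188 to 8281 CPM against 15.8 to 33.9 CPM in the other 7 young mice. Old mouse 1187 held the highest macrophage marker sum, 1645 CPM; the other 8 old mice reached at most 455.3 CPM, and without 1187 only 1 of the 6 macrophage markers (Marco) was called. No marker was at 0 in every library, but the 3 cholangiocyte markers and 4 of the 5 lymphocyte markers were too low to test. In bulk RNA, fewer cells of a type and less RNA per cell cannot be told apart.

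The promoters of the output genes are shown because the clock reaches these genes through short DNA elements near the start of transcription. RefSeq windows on GRCm38.p6, from 250 bases before the start site to 50 after it, matched 8 of the 9 genes; none matched Bhlhe40. They were searched for the E-box (CACGTG), the D-box (TTANGTAA, on both strands) and the ROR element (AGGTCA after 2 bases that are A or T, on both strands). The E-box is its own reverse complement. Capitals mark E-boxes in the sequences below, which read 5′ to 3′ along the gene's strand.
Ciart, chr3:95882179-95882478, minus strand: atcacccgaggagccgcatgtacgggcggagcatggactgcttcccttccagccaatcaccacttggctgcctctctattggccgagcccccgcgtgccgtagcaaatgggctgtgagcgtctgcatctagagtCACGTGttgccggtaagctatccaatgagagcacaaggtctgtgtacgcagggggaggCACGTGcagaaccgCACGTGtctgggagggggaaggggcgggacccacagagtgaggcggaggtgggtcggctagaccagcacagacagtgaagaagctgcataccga
Tef, chr15:81811164-81811463, plus strand: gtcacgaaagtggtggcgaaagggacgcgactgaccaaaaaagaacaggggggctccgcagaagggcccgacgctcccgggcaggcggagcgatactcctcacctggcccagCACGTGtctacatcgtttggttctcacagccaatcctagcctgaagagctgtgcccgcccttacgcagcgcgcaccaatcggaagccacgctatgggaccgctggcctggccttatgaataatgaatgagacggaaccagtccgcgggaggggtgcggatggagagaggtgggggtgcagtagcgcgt
Bhlhe41, chr6:145865371-145865670, minus strand: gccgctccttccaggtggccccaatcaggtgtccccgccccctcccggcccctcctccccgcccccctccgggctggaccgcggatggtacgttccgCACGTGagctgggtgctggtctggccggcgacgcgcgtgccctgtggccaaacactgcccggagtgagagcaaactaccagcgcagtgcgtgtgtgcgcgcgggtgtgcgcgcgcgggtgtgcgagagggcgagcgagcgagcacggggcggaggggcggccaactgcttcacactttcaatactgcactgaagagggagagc
Noct, chr3:51224197-51224496, plus strand: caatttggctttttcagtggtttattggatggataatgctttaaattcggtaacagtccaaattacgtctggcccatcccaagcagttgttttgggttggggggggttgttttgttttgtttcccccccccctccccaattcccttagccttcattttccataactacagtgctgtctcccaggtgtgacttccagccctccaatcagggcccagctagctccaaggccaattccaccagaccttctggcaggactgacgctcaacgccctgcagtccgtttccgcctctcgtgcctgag
Dbp, chr7:45704997-45705296, plus strand: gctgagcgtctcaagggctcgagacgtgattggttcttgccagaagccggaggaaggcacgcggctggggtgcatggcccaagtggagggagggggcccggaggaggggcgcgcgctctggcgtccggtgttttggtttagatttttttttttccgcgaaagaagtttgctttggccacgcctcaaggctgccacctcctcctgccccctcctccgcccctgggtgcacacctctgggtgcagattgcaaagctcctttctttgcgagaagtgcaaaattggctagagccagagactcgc

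Ciart had 3 E-boxes, beginning 116, 58 and 44 bases before the start site. Tef had 1 at 138 bases and Bhlhe41 had 1 at 153 bases before it. A second RefSeq start of Tef, whose window lies upstream, also held 1, at 127 bases. The windows of Noct, Usp2, Dbp, Hlf and Nfil3 held no CACGTG, and none of the 8 genes had a D-box or a ROR element in its window. Of all 32851 RefSeq windows of this length, 7.15% held the E-box, 2.32% the D-box and 3.38% the ROR element. A missing match speaks only of these letters in this window.

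Noct was the output gene with the largest difference between ages, and it lay in the opposite direction from Usp2, Tef, Hlf and Bhlhe41. On the first cull day, young mice 1186, 1188, 1184, 1180 and 1182 had 5.41, 10.1, 12.0, 12.6 and 18.7 CPM of Noct, and old mice 1181, 1189, 1185, 1187 and 1183 had 60.1, 60.2, 65.7, 66.3 and 123.6 CPM. On the second, young mice 1244, 1239, 1235, 1237 and 1243 had 6.42, 9.58, 10.3, 14.9 and 20.4 CPM, and old mice 1242, 1240, 1238 and 1236 had 71.4, 92.4, 94.2 and 117.9 CPM. The groups did not overlap: 9 of 9 old mice lay above every young mouse, and the lowest old value was 60.1 CPM beside a highest young value of 20.4 CPM. All old mice above all young mice was the case for 0.994% of the 12269 genes tested, and the choice of Noct used this contrast. Young mice averaged 12.1 ± 4.84 CPM (SD, n = 10) and old mice 83.5 ± 24.6 CPM (SD, n = 9), a ratio of 6.93. The counts behind these levels were 97 to 374 reads per young library and 1154 to 2379 per old library. The log2 fold change was 2.80 (SE 0.227) over both cull days, 2.67 (SE 0.321) on the first and 2.93 (SE 0.333) on the second. By this value Noct ranked 17 among the 12269 genes tested. Noct lies on chromosome 3 (51224447 to 51251654, plus strand, mm10), and GENCODE M21 places no other gene on its exons.

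**Figure D1:**
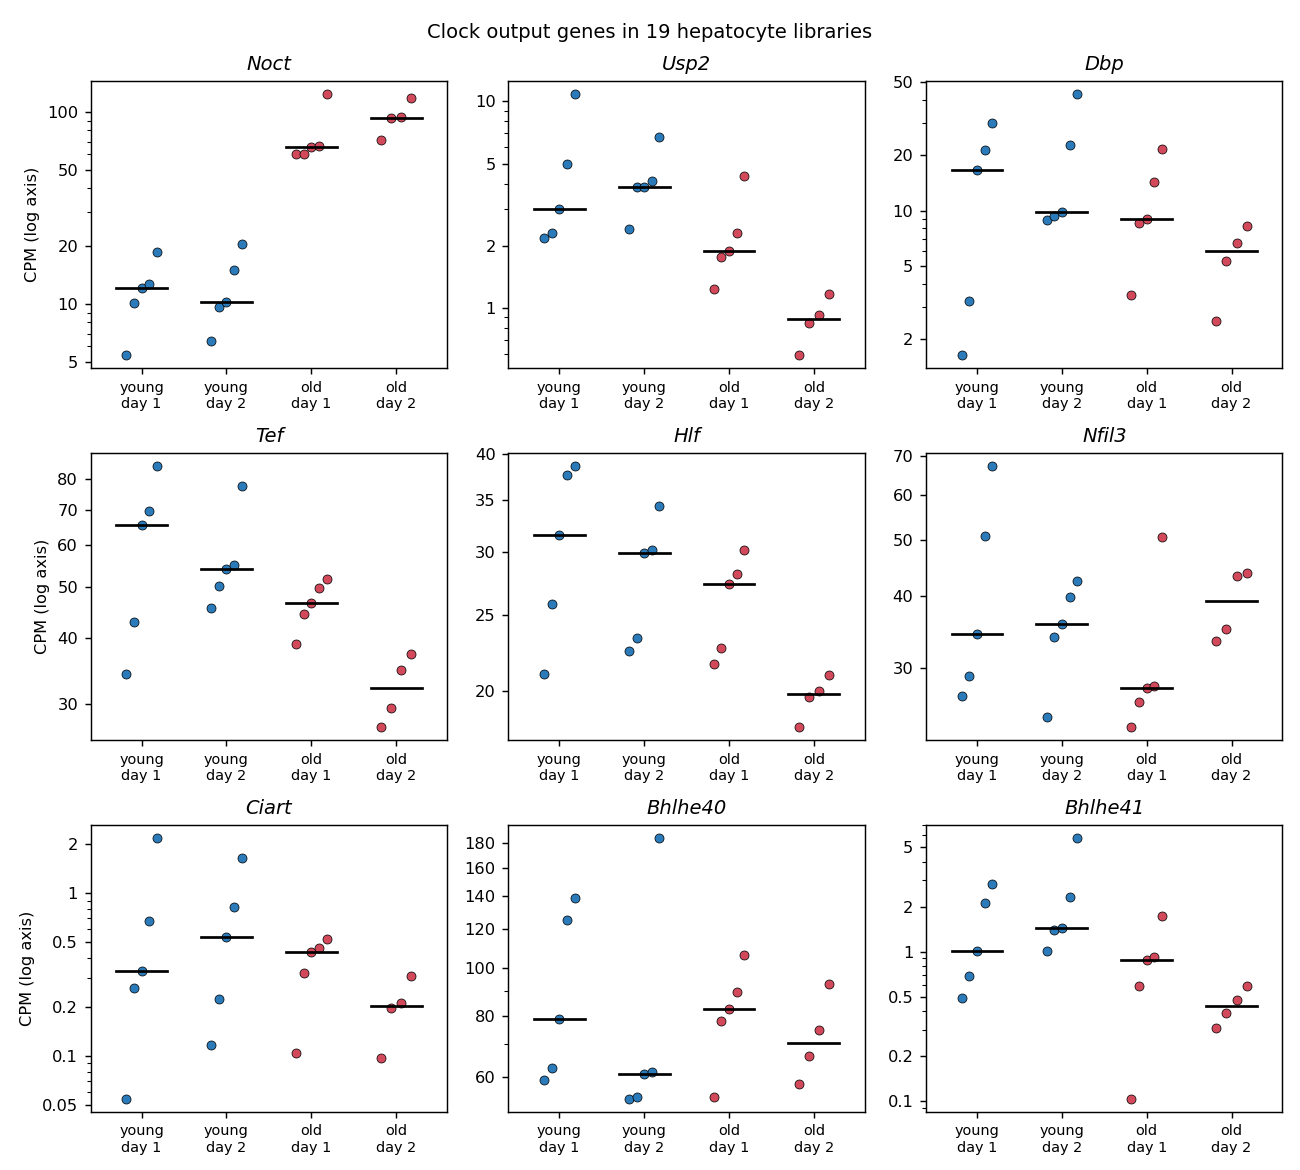
Levels of the 9 output genes in each of 19 hepatocyte libraries, in CPM on a log axis, by age and cull day; each point is 1 mouse and each bar is the median of its group. Noct is the only panel in which all old points (60.1 to 123.6 CPM) lie above all young points (5.41 to 20.4 CPM).

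The Noct difference varied little with the mice that stood apart and with the markers of other cells in the fit. It was 2.66 without young mice 1184, 1186 and 1188, 3.13 with the score of 20 markers of other cells as a covariate, and it ran from 2.68 to 2.92 when each mouse was left out in turn. Across mice within a group, Noct residuals went with the other-cell score at r = -0.47 and with the early response score at r = -0.27 (19 libraries, given as descriptions). Without young mice 1184, 1186 and 1188 these were -0.42 and 0.33, so the sign of the second turned.

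Of the PAR bZIP activators, Dbp overlapped fully between ages with a lower mean in old mice, and Tef and Hlf had lower medians in old mice with partial overlap. Young mice had 1.64, 3.23, 16.5, 21.4 and 29.9 CPM of Dbp on the first cull day and 8.93, 9.29, 9.80, 22.7 and 42.9 CPM on the second. Old mice had 3.48, 8.58, 9.02, 14.3 and 21.5 CPM on the first day and 2.53, 5.30, 6.69 and 8.23 CPM on the second. All old values lay within the young range, and the 3 lowest of all were young mouse 1184, old mouse 1238 and young mouse 1186. The means were 16.6 ± 12.9 CPM (SD, n = 10) and 8.85 ± 5.89 CPM (SD, n = 9), a log2 difference of -0.97 (SE 0.499).

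Tef, the second activator, had 34.1, 42.8, 65.5, 69.6 and 84.9 CPM in young mice of the first cull day and 45.5, 50.2, 54.1, 55.0 and 77.8 CPM in those of the second. Old mice had 38.9, 44.4, 46.5, 49.8 and 51.7 CPM on the first day and 27.1, 29.5, 34.8 and 37.3 CPM on the second. Each of the 9 old mice was below the young median of 54.6 CPM, and on the second day the highest of 4 old mice was below the lowest of 5 young mice. The log2 difference was -0.57 (SE 0.151). Hlf ran from 21.0 to 38.7 CPM in young mice (median 30.1 CPM) and from 17.98 to 30.2 CPM in old mice (median 21.6 CPM), a log2 difference of -0.37 (SE 0.115). It was -0.13 with the other-cell score in the fit, -0.19 with the early response score and -0.53 without young mice 1184, 1186 and 1188; across mice within groups Hlf went with these scores at r = -0.57 and -0.61. Its 4 old mice of the second day had 17.98 to 21.0 CPM, at or just below the lowest young value.

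Nfil3, the repressor of the same sites, overlapped throughout. Young mice ranged from 24.6 to 67.4 CPM (median 35.1 CPM) and old mice from 23.7 to 50.6 CPM (median 33.4 CPM). The log2 difference was -0.15 (SE 0.184), and its sign turned to 0.15 without young mice 1184, 1186 and 1188, of which 1184 and 1186 had the 2 highest values of any mouse (51.0 and 67.4 CPM).

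Among the repressors of the E-box, Bhlhe40 was abundant with overlapping values at both ages, while Bhlhe41 was scarce and lower in old mice. Bhlhe40 had 54.2 to 184.3 CPM in young mice (median 62.0 CPM) and 54.5 to 106.5 CPM in old mice (median 77.9 CPM). Its mean was lower in old mice while its median was higher; the log2 difference was -0.18 (SE 0.232), and 0.05 without young mouse 1243, which held 184.3 CPM. Bhlhe41 had 0.492, 0.685, 1.01, 2.12 and 2.85 CPM in young mice of the first cull day and 1.01, 1.40, 1.43, 2.30 and 5.78 CPM in those of the second. Old mice had 0.104, 0.590, 0.873, 0.922 and 1.72 CPM on the first day and 0.309, 0.389, 0.475 and 0.591 CPM on the second. The log2 difference was -1.496 (SE 0.473), from 9 to 106 reads per young library and 2 to 33 per old library, so its size is imprecise. Ciart was at the edge of detection, with 1 to 40 reads per young library (0.0547 to 2.19 CPM) and 2 to 10 per old library (0.0972 to 0.522 CPM). Some of these are under the floor of 3 reads, and no difference was fitted.

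Usp2, the protease, was low and lower in old mice. Young mice had 2.19, 2.32, 3.01, 4.99 and 10.9 CPM on the first cull day and 2.40, 3.85, 3.86, 4.14 and 6.71 CPM on the second. Old mice had 1.23, 1.77, 1.88, 2.31 and 4.36 CPM on the first day and 0.591, 0.844, 0.926 and 1.17 CPM on the second. The groups overlapped through 2 old mice, 1185 and 1187, and the other 7 lay below every young mouse. The means were 4.43 ± 2.65 CPM (SD, n = 10) and 1.67 ± 1.15 CPM (SD, n = 9), and the log2 difference was -1.54 (SE 0.346).

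By the sign of the log2 difference, Noct was higher in old mice and the other 7 genes tested were lower; those of Nfil3 and Bhlhe40 turn sign between settings. Of all genes tested, 30.9% were called different between ages (edgeR adjusted p under 0.05), 16.3% higher and 14.5% lower; no call is given for the output genes, which were chosen on this contrast. The median log2 difference over the 8 genes was -0.47, beside -0.0034 over all genes tested.

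Compared per length of exon, on the scale of CPM per kilobase, the order of the levels differed between ages mainly through Noct. In young mice it ran from Bhlhe40 (28.4 ± 14.6, SD, n = 10) through Nfil3 (19.4 ± 6.43), Tef (13.7 ± 3.81), Dbp (9.95 ± 7.70), Hlf (5.21 ± 1.11) and Noct (3.93 ± 1.58) to Usp2 (1.38 ± 0.825), Ciart (0.495 ± 0.507) and Bhlhe41 (0.312 ± 0.254). In old mice Noct stood first at 27.3 ± 8.02 (SD, n = 9), next to Bhlhe40 at 25.1 ± 5.44, from which it did not differ beyond their spread. Nfil3 (17.4 ± 4.72), Tef (9.44 ± 2.05), Dbp (5.30 ± 3.52), Hlf (4.10 ± 0.763), Usp2 (0.521 ± 0.358), Ciart (0.213 ± 0.112) and Bhlhe41 (0.109 ± 0.0773) followed. Neighbours in the order whose means ± SD overlapped were, in young mice, all pairs but Noct and Usp2. In old mice they were all but Nfil3 and Tef, and Hlf and Usp2. The lengths were those of the deposited table, 3064 bases for Noct and 3106 for Bhlhe40. GENCODE M21 gives 10658 and 4705 exon bases over all transcripts, so the place of Noct depends on the length used.

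The genes were chosen on differences between ages within each cull day. The difference between the cull days over both ages is another contrast of the same libraries, and it was tested. None of the 8 output genes passed between the second and the first day (edgeR adjusted p under 0.05), where 12.3% of all genes tested did, 5.72% higher and 6.55% lower on the second day. At an unadjusted p under 0.05 there was 1 of 8 (Hlf), beside 30.0% of all genes. DESeq2 also called 0 of the 8. Noct was higher on the second day by a log2 value of 0.19 (SE 0.218, edgeR adjusted p = 0.575). The lowest adjusted p was that of Hlf, 0.131, with a log2 difference of -0.26 (SE 0.115). Usp2 differed by -0.67 (SE 0.340, edgeR adjusted p = 0.189) and Tef by -0.28 (SE 0.151, edgeR adjusted p = 0.216). Single mice moved some of these values: leaving out each in turn gave -0.84 (without young mouse 1243) to -0.42 (without young mouse 1188) for Usp2 and 0.080 (without 1243) to 0.31 (without young mouse 1182) for Noct, with no call.

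Within the old mice alone, Usp2 was lower on the second day, where the 4 mice had 0.591 to 1.17 CPM and the 5 of the first had 1.23 to 4.36 CPM. In the shared fit the log2 difference between days in old mice was -1.39 (SE 0.488) for Usp2, -0.52 (SE 0.213) for Tef and -0.40 (SE 0.167) for Hlf. These are descriptions, since the old values of each day entered the choice of the genes. The all-gene count of cull day calls was 1506 with young mice 1184, 1186 and 1188 and 0 without them. Leaving them out takes away 3 of the 5 young mice of the first cull day. A lost call there does not by itself mean a smaller difference.

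The age differences on each cull day are the values that chose the genes, so they are set side by side without a test, and it is not said that the days differ. Usp2 was lower in old mice by 1.01 (SE 0.421) on the first day and by 2.24 (SE 0.492) on the second, on the log2 scale. Bhlhe41 was lower by 0.76 (SE 0.583) and by 2.42 (SE 0.665), and Dbp by 0.35 (SE 0.637) and by 1.72 (SE 0.715). Noct was higher by 2.67 and 2.93. Over all genes, 0 of 12269 passed the test of an age by cull day interaction by edgeR (smallest adjusted p 0.542), 6.51% had an unadjusted p under 0.05, and DESeq2 called 20.

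**Figure D2:**
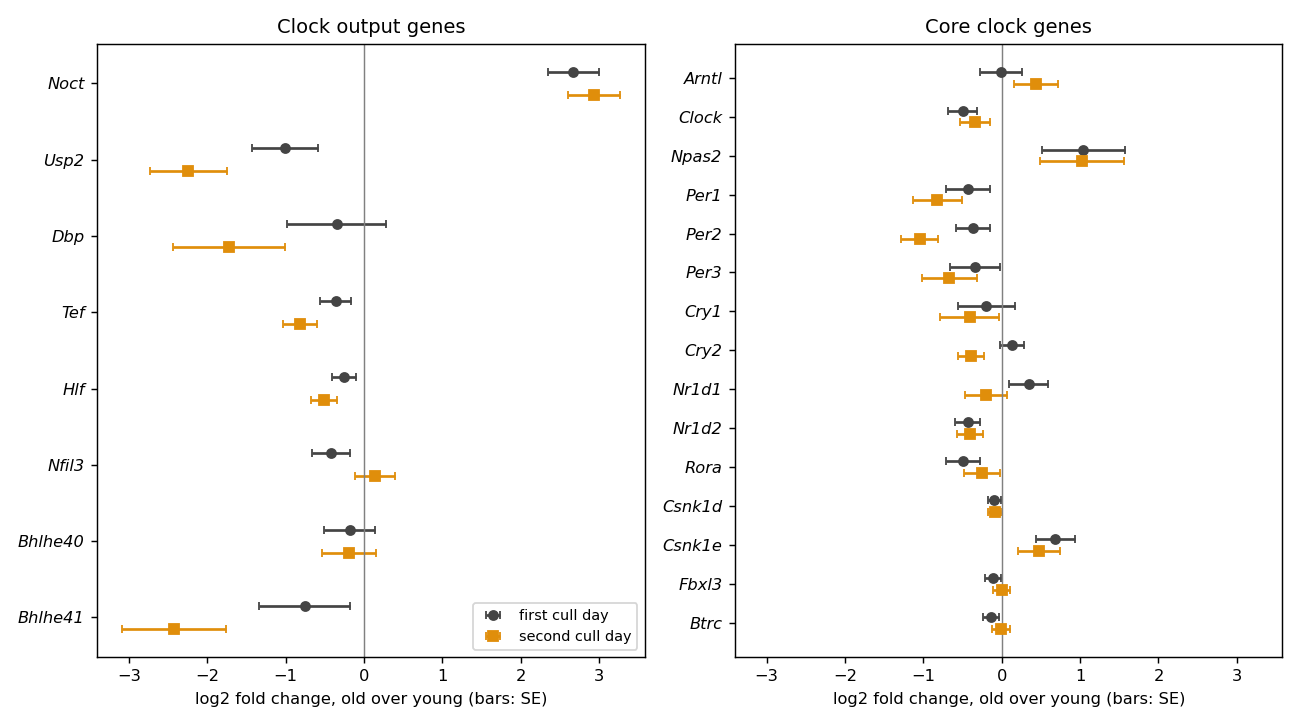
Log2 fold change of old over young mice on each cull day for the 8 output genes tested and 15 core clock genes, with bars of 1 standard error; values right of 0 are higher in old mice. Noct stands at 2.67 and 2.93 on the 2 days, while Usp2, Dbp, Tef, Hlf, Bhlhe40 and Bhlhe41 lie left of 0 on both, Bhlhe40 on both days and Dbp on the first within 1 standard error of 0.

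Mice of the same age and cull day differed more in Dbp than in nearly any other gene. The standard deviation of log2 CPM around the 4 group means was 1.22 for Dbp, higher than in 99.0% of genes tested, and 0.93 for Bhlhe41 (96.5%). It was 0.67 for Usp2 (91.9%), 0.54 for Bhlhe40 (87.1%), 0.54 for Noct (87.0%), 0.41 for Nfil3 (78.4%), 0.34 for Tef (71.3%) and 0.26 for Hlf (57.3%), against a median of 0.24 over all genes. The values of Bhlhe41 and Usp2 rest on low counts. For Dbp, the spread was widest among young mice of the first day, at 1.81 (n = 5), where 1184 and 1186 had 1.64 and 3.23 CPM and the other 3 had 16.5 to 29.9 CPM. Among old mice it was 0.97 on the first day (n = 5) and 0.72 on the second (n = 4).

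That spread was shared between output genes. Relations were taken over the 19 mice after removing the mean of each age and cull day. They covered the 8 output genes and Arntl, 36 pairs in all, with 100000 permutations within groups and adjustment over the 36. The design had planned correlations of these residuals as a description only, so the permutation test was added to it. Arntl was the only 1 of the 15 core clock genes taken into the test. After adjustment 9 pairs passed, 3 positive and 6 negative. Mice with more Dbp had more Tef (Pearson's r = 0.922, permutation p = 2e-05, adjusted p = 0.00036; Spearman's rho = 0.898, permutation adjusted p = 0.00396). Without the 2 mice farthest from the median of Dbp, 1184 and 1188, r was 0.872. It was 0.966 within the first cull day and 0.800 within the second.

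Nfil3 went the other way. Mice with more Dbp had less Nfil3 (r = -0.851, permutation p = 0.00084, adjusted p = 0.00756; rho = -0.879, permutation adjusted p = 0.00396), with r of -0.845 and -0.879 on the 2 cull days and -0.911 without 1184 and 1188. Tef and Nfil3 gave r = -0.762 (permutation p = 0.00299, adjusted p = 0.0154; rho = -0.851, permutation adjusted p = 0.00612), with -0.744 and -0.833 on the 2 days and -0.848 without the same 2 mice. In the young mice with the 2 lowest Dbp values, 1184 and 1186, Nfil3 was at its 2 highest, and young mouse 1243 combined the highest Dbp (42.9 CPM) with the lowest young Nfil3 (24.6 CPM).

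These genes also went with the other-cell score within each age, in opposite directions at the 2 ages. Dbp gave r = -0.77 with the score in young mice and 0.82 in old mice, Tef -0.72 and 0.56, and Nfil3 0.84 and -0.79 (n = 10 and 9, given as descriptions). Without young mice 1184, 1186 and 1188 the young values were -0.39, -0.32 and 0.63 (n = 7), and without old mouse 1187 the old values were 0.79, 0.64 and -0.89 (n = 8). With the slope on that score within each age removed, a description added after the data were seen, Dbp and Tef gave r = 0.877. The relations of Nfil3 moved more, to -0.590 with Dbp and -0.523 with Tef.

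**Figure D3:**
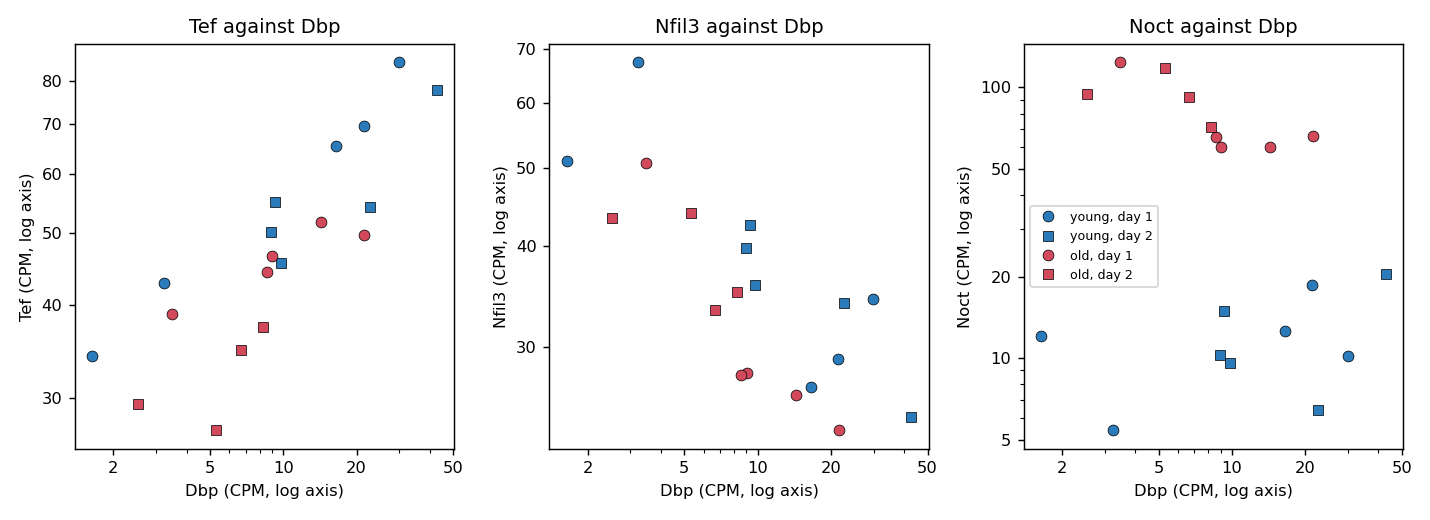
Tef, Nfil3 and Noct against Dbp in the 19 libraries, in CPM on log axes; blue is young, red is old, circles the first and squares the second cull day. Tef is higher and Nfil3 lower at higher Dbp at both ages, with r of 0.922 and -0.851 after removing group means, and Noct forms 2 separate bands by age.

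Arntl, the core activator, passed with Nfil3 in the positive direction and with Dbp, Tef, Bhlhe41 and Usp2 in the negative. Noct, Hlf and Bhlhe40 did not pass with it (permutation adjusted p of 0.782, 0.655 and 0.0917). With Dbp it gave r = -0.832 (permutation p = 3e-05, adjusted p = 0.00036; rho = -0.793, permutation adjusted p = 0.00612), with -0.841 and -0.817 on the 2 days and -0.808 without 1184 and 1188. With Tef it gave r = -0.804 (permutation p = 2e-05, adjusted p = 0.00036; rho = -0.751, permutation adjusted p = 0.00828), with -0.784 and -0.856 on the 2 days and -0.778 without 1184 and 1188. With Nfil3 it gave r = 0.719 (permutation p = 0.00344, adjusted p = 0.0155; rho = 0.719, permutation adjusted p = 0.0196), with 0.656 and 0.935 on the 2 days and 0.661 without 1186 and 1183.

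The E-box repressors also went together. Bhlhe40 and Bhlhe41 gave r = 0.788 (permutation p = 0.00173, adjusted p = 0.012; rho = 0.774, permutation adjusted p = 0.0178), with 0.854 and 0.786 on the 2 days and 0.683 without 1243 and 1188. Bhlhe41 and Arntl gave r = -0.774 (permutation p = 0.002, adjusted p = 0.012; rho = -0.682, permutation adjusted p = 0.032), with -0.698 and -0.949 on the 2 days and -0.662 without 1183 and 1243. Usp2 and Arntl gave r = -0.670 (permutation p = 0.00845, adjusted p = 0.0338), which did not pass by rank (rho = -0.581, permutation adjusted p = 0.118); r was -0.743 and -0.477 on the 2 days and -0.505 without 1188 and 1187. Hlf passed with none of the 8 others. Bhlhe41 did not pass with Dbp (r = 0.610, permutation adjusted p = 0.0626), Tef (r = 0.586, permutation adjusted p = 0.0598) or Nfil3 (r = -0.465, permutation adjusted p = 0.209). Without young mice 1184, 1186 and 1188 these r were 0.834, 0.788 and -0.902, beside 0.762 for Bhlhe40 and Bhlhe41. Without young mice 1184, 1186 and 1188 the 9 relations had the same sign, with r of 0.812 for Dbp and Tef, -0.876 for Dbp and Nfil3, and -0.541 for Usp2 and Arntl. The relations of Dbp and Tef with Per3 were 0.845 and 0.858 over 19 mice and 0.815 and 0.893 without the 3. Those with Cry2 went from 0.737 and 0.736 to 0.370 and 0.338, and that of Tef with Nr1d1 from 0.624 to 0.316, so they leaned on these mice. Other relations grew without them, such as Dbp and Nfil3 with Cry1, from -0.472 and 0.397 to -0.848 and 0.906. With the slope on the other-cell score within each age removed the 9 relations also had the same sign; Nfil3 and Arntl went to 0.547 and Usp2 and Arntl to -0.581.

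**Figure D4:**
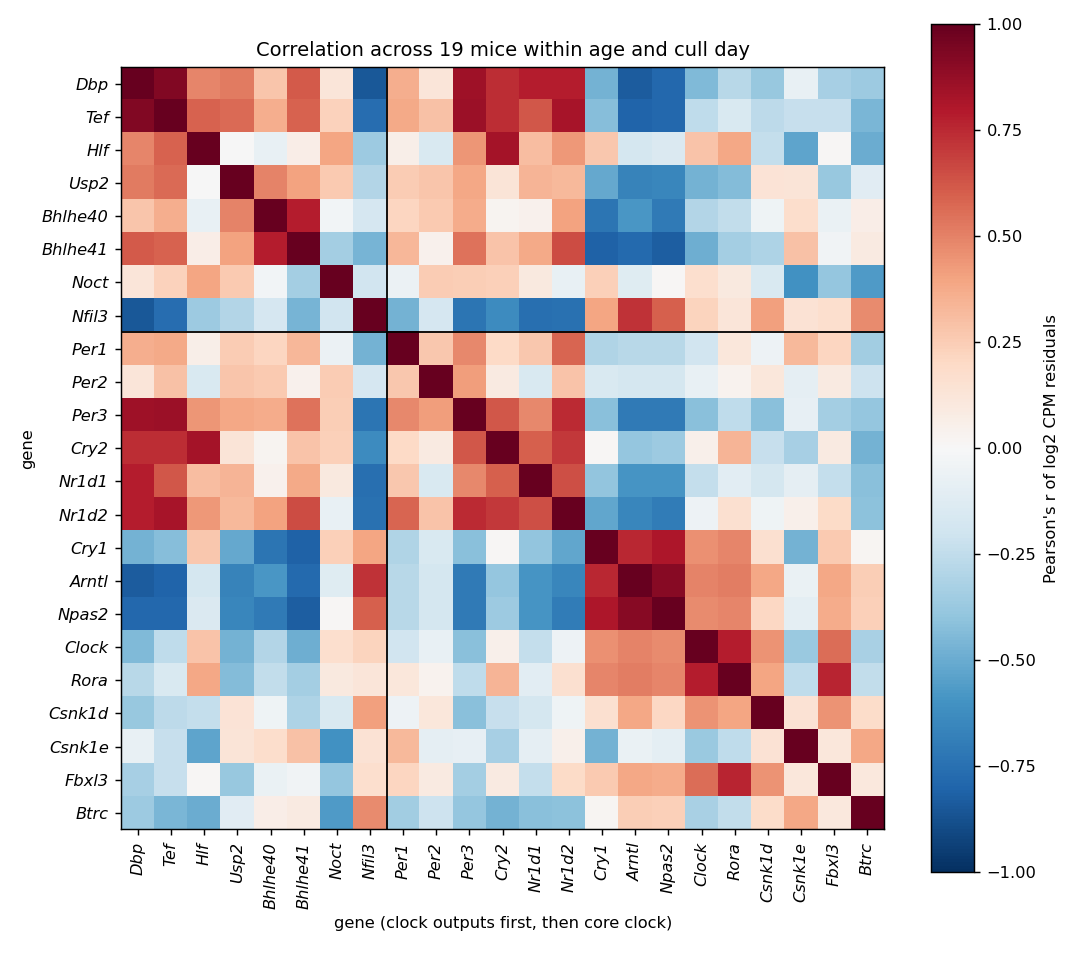
Pearson's r between 8 output genes and 15 core clock genes over 19 mice, from log2 CPM after removing the mean of each age and cull day; red is positive and blue negative. Dbp and Tef (r = 0.922) share their red with Per3 and Nr1d2, and Nfil3 shows the reverse there; the strongest cell of Noct is that with Csnk1e (r = -0.61), next Btrc (r = -0.56).

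No relation of Noct passed. Its r with the other 7 output genes and Arntl lay between -0.342 (Bhlhe41) and 0.397 (Hlf), with adjusted permutation p from 0.332 to 0.953. Within the ages, a family of 16 relations, none passed either. In old mice Noct and Tef gave r = -0.830 (exact permutation p = 0.00417, adjusted p = 0.0667, n = 9); r was -0.822 without old mouse 1183 and -0.599 without the 2 farthest mice, 1183 and 1236. Noct and Bhlhe41 gave r = -0.861 there (exact permutation p = 0.0142, adjusted p = 0.114), and -0.346 without those 2 mice. With Arntl r was 0.671 (exact permutation p = 0.0319, adjusted p = 0.170), and 0.259 without them. Noct and Nfil3 gave r = 0.886 in old mice (exact permutation p = 0.0528, adjusted p = 0.197, n = 9), which dropped to 0.297 without the same 2 mice and to 0.513 without 1183, the old mouse with the most Noct (123.6 CPM) and the most Nfil3 (50.6 CPM). In young mice the same pair gave r = -0.636 (exact permutation p = 0.0616, adjusted p = 0.197, n = 10). Whether the ages differ in these relations was not tested.

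Genes whose pattern was most like each output gene were ranked by r of the same residuals over 11080 named genes with a mean of at least 1 CPM, as a description that shares libraries and depth. For Dbp the first 3 were Tef (0.92), Wee1 (0.86), a kinase of the cell cycle, and Per3 (0.85), and the lowest of all 11080 genes was Nfil3 (-0.85). For Tef they were Dbp (0.92), Per3 (0.86) and Nr1d2 (0.83), the gene of the repressor REV-ERB beta. Without young mice 1184, 1186 and 1188, Tef, Wee1 and Per3 ranked 8, 5 and 6 for Dbp, with r of 0.81, 0.82 and 0.81.

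For Noct the nearest were Proca1 (0.85), Glyat (0.84), which encodes glycine N-acyltransferase of the mitochondria, and Rps27l (0.84), a ribosomal protein paralog. Proca1 fell to rank 15 without the same 3 mice (r = 0.76), and Rps27l gave a rho of 0.64. No core clock gene was among them. Glyat was lower in old mice (young 224.4 ± 36.7 CPM, SD, n = 10; old 182.8 ± 30.6 CPM, SD, n = 9; edgeR adjusted p = 0.0124), while Noct was higher.

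For Hlf the nearest were Zbtb44 (0.87), Acot12 (0.87), an acyl-CoA thioesterase, and Nmt2 (0.87), an N-myristoyltransferase. For Nfil3 they were Pnrc1 (0.88), a nuclear receptor coactivator, Mif4gd (0.84) and Kdf1 (0.82). Bhlhe40 and Bhlhe41 shared Klf10 (0.86 and 0.82), a zinc finger factor, and Flcn (0.80 and 0.79), folliculin, with P2ry2 (0.80) next for Bhlhe40 and Pick1 (0.81) for Bhlhe41. For Usp2 they were Rrm2 (0.76), a subunit of ribonucleotide reductase, Anapc11 (0.73) and Pdss1 (0.72).

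Of the 15 core clock genes examined, 2 were higher and 4 lower in old mice (edgeR adjusted p under 0.05), with a median log2 difference of -0.11 beside -0.0034 over all genes; the shares over all genes tested were 16.3% higher and 14.5% lower. Npas2, a paralog of Clock, was higher by 1.03 (SE 0.368, edgeR adjusted p = 0.0396), with 1.58 ± 0.921 CPM for young mice (SD, n = 10) and 3.15 ± 1.496 CPM for old mice (SD, n = 9). Csnk1e, a kinase of PER proteins, was higher by 0.59 (SE 0.180, edgeR adjusted p = 0.0196); across mice within groups it went with the other-cell score at r = 0.92. Per2 was lower by 0.68 (SE 0.175, edgeR adjusted p = 0.00799), Per1 by 0.61 (SE 0.208, edgeR adjusted p = 0.0335), Clock by 0.42 (SE 0.131, edgeR adjusted p = 0.0205) and Nr1d2 by 0.42 (SE 0.111, edgeR adjusted p = 0.00892). Arntl had 14.3 ± 4.17 CPM in young mice and 16.5 ± 4.75 CPM in old mice (edgeR adjusted p = 0.447), and Nr1d1 76.1 ± 21.5 and 80.5 ± 22.4 CPM (edgeR adjusted p = 0.741). With the other-cell score in the fit, 1 of the 15 was called (Npas2), and with the early response score 1 was (Per2). The log2 differences behind the lost calls moved unequally. With the other-cell score Per2 was at -0.67, Nr1d2 at -0.42 and Per1 at -0.83, close to their differences without it or further from 0, while Clock was at -0.27 and Csnk1e at 0.030. With the early response score Npas2 was at 1.12, Per1 at -0.56, Nr1d2 at -0.37, Clock at -0.27 and Csnk1e at 0.29. Without young mice 1184, 1186 and 1188, Npas2 was no longer called at a nearly equal difference of 1.03 (edgeR adjusted p = 0.0609), and Cry2 was, at -0.29 (edgeR adjusted p = 0.0338). The median over the 15 genes was -0.29 in that setting.

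The targets of the PAR bZIP factors showed 0 of 7 calls with age (edgeR adjusted p under 0.05) and a median log2 difference of -0.32, where 30.9% of all genes were called. The smallest adjusted p of the 7 lay just past the threshold, that of Cyp2a5 at -0.87 (edgeR adjusted p = 0.0507). With the early response score in the fit the median was -0.0054. Between cull days 0 of the 7 had an unadjusted p under 0.05, beside 30.0% of all genes. Without young mice 1184, 1186 and 1188, 2 of the 7 were lower, Cyp2a5 and Cyp7a1, the rate-limiting enzyme of bile acid synthesis. DESeq2 called 1, Cyp2a5, and so did edgeR without old mouse 1187. Of 11 other clock-controlled outputs of the liver, 2 were higher and 3 lower, beside 30.9% of all genes called in either direction. Coq10b, a coenzyme Q binding protein, was lower by 0.97 (SE 0.132, edgeR adjusted p = 8.7e-05), and Ppard, a nuclear receptor, was higher by 0.54 (SE 0.161, edgeR adjusted p = 0.0165). With the other-cell score, 0 of the 11 were called higher and 2 lower, Coq10b and Lpin1. Of the 2 that had been higher, Ppard went to 0.40, and Rgs16 went from 1.45 to 2.09 without passing (edgeR adjusted p = 0.0719). Elovl3, 1 of the 3 that had been lower, went from -0.94 to -0.45 with that score (edgeR adjusted p = 0.386). Without young mice 1184, 1186 and 1188, Rgs16 was at 0.84 (edgeR adjusted p = 0.209).

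A list set beside Noct held 12 genes, for CCR4-NOT and other deadenylase subunits, related proteins and the kinases that make NADP. In old mice 0 were higher and 4 lower, where 16.3% of all genes were higher and 14.5% lower, 30.9% in all. Pan2 was called higher with library totals as the scaling, without old mouse 1187 and with the other-cell score. Pde12, a mitochondrial deadenylase, was lower by 0.57 (SE 0.128, edgeR adjusted p = 0.00349). Nadk, the cytosolic NAD kinase, and Nadk2, the mitochondrial one, were lower by 0.25 (SE 0.0566, edgeR adjusted p = 0.00423) and 0.36 (SE 0.0998, edgeR adjusted p = 0.0115). Cnot6 was the other one, and with the other-cell score Pde12 alone was called lower, at -0.64, with Nadk at -0.19, Nadk2 at -0.15 and Cnot6 at -0.20. Between cull days 2 of the 12 were lower on the second, where 6.55% of all genes were, Cnot6 by 0.33 (SE 0.0647, edgeR adjusted p = 0.00965) and Parn by 0.16 (SE 0.0496, edgeR adjusted p = 0.0391). Neither passed without the 3 young mice, at differences of about the same size, -0.31 for Cnot6 (edgeR adjusted p = 0.0792) and -0.17 for Parn (edgeR adjusted p = 0.127).

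Glucocorticoids and feeding are known time cues of the liver clock, and early response genes mark recent stress of cells, so both lists are given beside the output genes. Of 14 early response genes, 5 were higher and 0 lower in old mice, where 16.3% of all genes were higher and 14.5% lower. Ier2 was higher by 0.85 (SE 0.182, edgeR adjusted p = 0.00256); 3 of the 5 (Jun, Egr1 and Ier2) were called with the other-cell score in the fit, and 9 of the 14 without young mice 1184, 1186 and 1188. The other 2 differed by about as much with that score as without it, Fos by 1.39 and 1.52 (edgeR adjusted p = 0.0502 with it) and Atf3 by 1.19 and 1.22 (edgeR adjusted p = 0.142 with it). With the early response score in the fit the Noct difference was 3.01 and that of Bhlhe40 -0.53. Of 10 genes of the glucocorticoid and fasting response, 0 were higher and 3 lower in old mice. Of all genes, 16.3% were higher and 14.5% lower, 30.9% in all. The lead was Tat, tyrosine aminotransferase, lower by 1.10 (SE 0.179, edgeR adjusted p = 0.000324). The median over the 10 was -0.50. Without the 3 young mice Mt1 and Mt2, the metallothioneins, were called higher in old mice. Between cull days 3 of the 10 were lower on the second, where 6.55% of all genes were, led by Tsc22d3, the glucocorticoid-induced leucine zipper, with -0.59 (SE 0.147, edgeR adjusted p = 0.0205), and 0 were without young mice 1184, 1186 and 1188, where Tsc22d3 was at -0.74 (edgeR adjusted p = 0.057). The other 2, Mt1 and Mt2, went from -3.85 to -0.95 and from -4.45 to -1.75.

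Some reads of 3 output genes could belong to neighbours. In GENCODE M21, 539 of the 2993 exon bases of Dbp overlap Sphk2 on the opposite strand, 118 of Bhlhe40 overlap an antisense transcript and 1280 of the 6720 of Bhlhe41 overlap a predicted transcript on the other strand. The strand setting of the counting is not given in the sources used here. Sphk2, a sphingosine kinase, averaged 56.5 ± 10.3 CPM among young (SD, n = 10) and 52.5 ± 6.93 CPM among old mice (SD, n = 9; edgeR adjusted p = 0.503), and its residuals went with those of Dbp at r = 0.59.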

How the data were processed

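Hepatocyte RNA of 19 libraries was analysed. Estimated counts per gene were deposited by the authors in 1 table; per the file headers it was written by HOMER for mm10, over exons of RefSeq transcripts, condensed to genes and not normalized. STAR and HOMER are named in the submitters' processing notes, without versions. Values came in steps of 0.5 and 29.2% were not whole, so they were rounded before count tests (the design had assumed whole counts). Genes held 78.3% to 86.5% of the totals in the column headers.

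edgeR 4.0.16 in R 4.3.3 fitted age and cull day together to the 12269 genes that passed filterByExpr (minimum count 10), with TMM scaling, the quasi-likelihood test, Benjamini-Hochberg adjustment over all genes and a threshold of 0.05; standard errors came from the F statistic. The interaction, and each difference within a day or an age, came from a fit with the 4 groups. The script was tested on simulated data. CPM used TMM library sizes, and log2 CPM a prior count of 2. A list score was the mean log2 CPM of its tested genes. Permutations kept mice within their age and cull day, and were added to a design that planned correlations as descriptions. Alternatives used DESeq2 1.42.0, other scaling and filters, other covariates, and left mice out.

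The 9 genes and all lists were chosen with earlier results of these data known, and so were the 3 young mice left out as an alternative. Genes named outside the 9 were those of the core clock, the smallest p past the threshold per list, direction and contrast, and the 3 with the highest r per output gene. Outside that rule, Cyp2a5, Cyp7a1, Nadk, Nadk2, Cnot6 (age), Pan2, Parn, Lpin1, Elovl3, Rgs16, Fos, Atf3, Jun, Egr1, Mt1, Mt2, Marco, Saa1 and Sphk2 were named after their values were seen. An item of the core clock list is not reported here. Gene coordinates are those of the deposited table.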

Additional observations from a re-analysis of the deposited data

Results flagged for a closer look

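Values of the output and core clock genes were screened for 1 mouse far from the others of its age and cull day, in groups of 4 or 5 mice. In 96 groups (24 genes), 10 held such a mouse, in 7 libraries. The cut-off flags about 1 in 20 groups when values are independent and normally distributed. The screen used CPM without logs and the genes share the same libraries, so the count is not set against chance.

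Old mouse 1183 had 123.6 CPM of Noct where the other 4 old mice of the first cull day had 60.1 to 66.3 CPM, and 50.6 CPM of Nfil3 against 23.7 to 27.9 CPM. Young mouse 1243 had 184.3 CPM of Bhlhe40 against 54.2 to 61.4 CPM in the other 4 young mice of the second day, 5.78 CPM of Bhlhe41 against 1.01 to 2.30 CPM, and 4.69 CPM of Per3 against 1.43 to 2.13 CPM. Young mouse 1188 had 2.19 CPM of Ciart against 0.0547 to 0.673 CPM.

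Among core clock genes, young mouse 1186 had 19.6 CPM of Btrc against 13.2 to 14.3 CPM, and young mouse 1182 had 58.8 CPM of Csnk1d against 67.6 to 70.6 CPM. Old mouse 1189 had 3.44 CPM of Per2 against 4.84 to 5.15 CPM. Young mouse 1180 had 109.3 CPM of Rora against 60.8 to 66.3 CPM.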

How the results depend on the processing

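The Noct age difference had the same direction in all 30 alternatives, from 2.66 to 3.13, and 0 of the 8 output genes were called by cull day in any setting run. Genes called with age numbered 3785, against 450 on the first cull day alone (435 shared), 2389 on the second alone (1833 shared), 1572 with the other-cell score and 1415 with the early response score, a covariate added after the data were seen; leaving out each mouse gave 3014 to 3949. Library totals as the scaling moved the share of higher calls from 53.0% to 64.2%. Genes called with cull day numbered 1506, against 971 with no filter, 775 with no age term, 393 in young mice alone, 0 in old mice alone and 0 without young mice 1184, 1186 and 1188; leaving out each mouse gave 609 to 2336. Interaction calls went from 0 to 20 with DESeq2 and 0 to 1 when each mouse was left out.

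Signs turned for differences near 0. For age, Nfil3 was 0.15 without the 3 young mice, 0.17 without these and old mouse 1187 (added later) and 0.14 on the second day alone; Bhlhe40 was 0.044 and 0.021 in the first of these 2 settings, and -0.25 to 0.048 leaving out each mouse. For cull day, Bhlhe40 was 0.061 without the 3 mice, Dbp was 0.37 and Nfil3 -0.24 in young mice alone, and Nfil3 was -0.050 and Bhlhe41 -0.23 with the early response score; leaving out each mouse gave -0.029 to 0.16 for Nfil3 and -0.34 to 0.28 for Bhlhe41. For the interaction, Hlf was 0.039 and Nfil3 -0.019 without the 3 mice, and Bhlhe40 -0.20 to 0.51 leaving out each mouse. The cause of these shifts was not tested. No paired analysis was possible because the ages and cull days share no library numbers. Also counting CACGTT as an E-box added no output gene and raised the share of windows to 11.4%. At this depth Ciart and Bhlhe41 reach 1 or 2 reads in some libraries.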
